A study of Sus scrofa with 6 samples.

Results

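The genes described here write, copy, read and remove cytosine methylation: the DNA methyltransferases DNMT1, DNMT3A and DNMT3B, the cofactors UHRF1 and UHRF2, the dioxygenases TET1, TET2 and TET3, the methyl-CpG-binding domain protein MBD3 and the glycosylase TDG. They were chosen by name, with earlier results of these data known. All 10 had a row among the 19271 named genes of the deposited table. Transcripts were sequenced from oocytes of prepubertal gilts whose ovaries were obtained at an abattoir. Large antral follicles, 3 to 6 mm wide, and small ones, 1.5 to 1.9 mm wide, gave 3 libraries each, from oocytes stripped of their cumulus cells, and the comparison asks how oocytes that differ in developmental competence differ in their transcripts. All animals were untreated, no strain or exact age is given, and nothing says whether the libraries of a group came from separate collections, so p-values here speak only of variation from library to library, which may be technical.

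In mammals, DNMT3A and DNMT3B place new methyl groups on CpG sites, and in the mouse DNMT3A does so during oocyte growth, when maternal imprints are set. DNMT1 copies methylation onto the daughter strand after replication, guided by UHRF1, and the mouse oocyte stores a form of DNMT1 made from its own promoter for use in the embryo. TET enzymes oxidise 5-methylcytosine, TDG excises the more oxidised products so that base excision repair can restore cytosine, and in mouse TET3 is the maternal enzyme that acts on the paternal genome after fertilisation. Counts here are per gene, so isoforms of any member could not be separated.

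Total counts ran from 8015357 to 56887282 reads per library, with large-follicle library 3 the shallowest and alone at one end of the first principal component (39.2% of the variance). All 12 listed oocyte markers were detected above 1 CPM (counts per 1000000 reads after scaling), and their sum was lower in large-follicle oocytes, at 15860.0 to 18091 CPM, than in small-follicle oocytes, at 20442 to 21771 CPM. Markers of granulosa and cumulus cells (14 of 16 in the table) summed to 137 to 208 CPM in large-follicle and 101 to 217 CPM in small-follicle libraries, with VCAN at a mean of 106 CPM, INHBA at 35.8 CPM (9.04 to 64.9), INHA at 9.87 CPM (2.59 to 22.1) and FST at 6.36 CPM. FSHR, AMH and LHCGR averaged 0.645, 0.141 and 0.0930 CPM. Markers of theca and stroma summed to 12.2 to 14.6 and 14.7 to 16.2 CPM, and of blood, immune and endothelial cells to 8.15 to 11.4 and 8.47 to 9.77 CPM, in the same order. Differences in cell number and in RNA per cell cannot be told apart in such bulk samples, and the part of these other transcripts in the results below was not tested.

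The 10 genes covered a very wide range of levels, and DNMT1 and UHRF2 stood far above the rest. Per transcript length, in TPM (length-scaled units as deposited, which sum to 1000000 in each library), DNMT1 averaged 8702 ± 1128 in large-follicle and 7258 ± 507 in small-follicle oocytes (SD, n = 3 each). UHRF2, the paralogue of UHRF1 that also binds 5-hydroxymethylcytosine, came next at 2682 ± 251 and 2769 ± 151 TPM, followed by UHRF1 at 323 ± 33.5 and 281 ± 28.0 TPM. DNMT3A stood at 146 ± 3.92 and 146 ± 10.6 TPM, TET3 at 111 ± 27.5 and 89.2 ± 10.1 TPM and DNMT3B at 108 ± 8.40 and 90.5 ± 3.20 TPM. MBD3 (17.6 ± 2.91 and 22.7 ± 1.06 TPM) and TET2 (12.6 ± 2.38 and 10.5 ± 0.793 TPM) were lower still, and TET1 (1.78 ± 0.693 and 1.53 ± 0.355 TPM) and TDG (0.398 ± 0.135 and 0.512 ± 0.191 TPM) were barely detected. Ranking by mean over the 6 libraries, the ranges of neighbouring genes did not overlap except between DNMT3A and TET3 and between TET3 and DNMT3B. DNMT3A was nevertheless above TET3 in each of the 6 libraries, whereas TET3 exceeded DNMT3B in only 4.

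**Figure D1:**
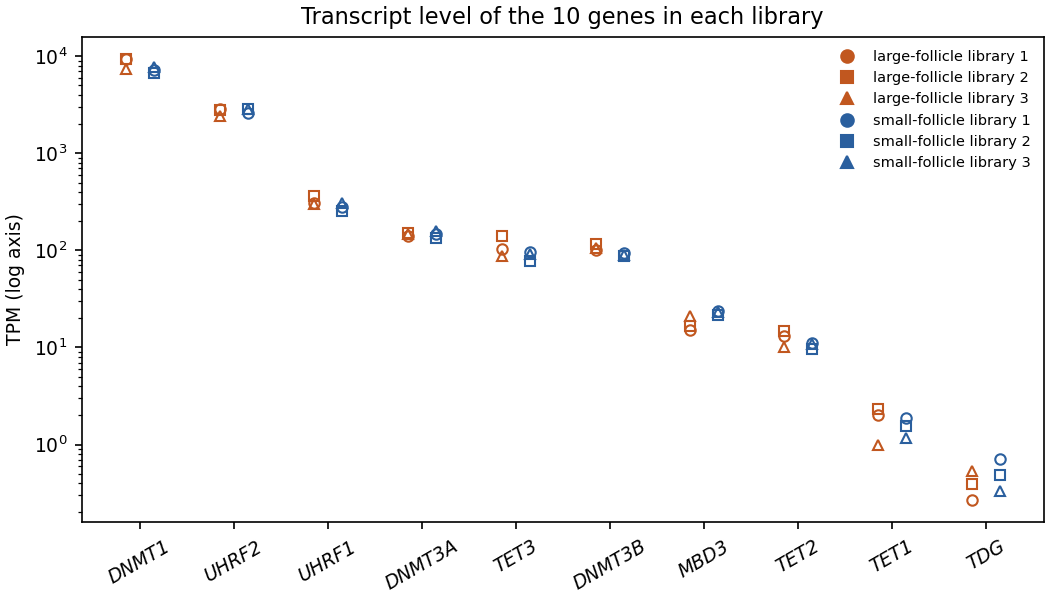
TPM of the 10 genes in each library on a log axis, ordered by their mean, with orange symbols for large-follicle and blue for small-follicle libraries. DNMT1 lies between 6764 and 9397 TPM and TDG between 0.267 and 0.715 TPM, and the order of most genes is the same in every library.

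DNMT1 and UHRF2 together held 93.5% to 94.7% of the TPM summed over the 10 genes. DNMT1 made up 96.7% to 97.5% of the TPM of the 3 methyltransferase genes, and TET3 made up 87.3% to 89.3% of that of the 3 TET genes. DNMT1 took the most reads of any gene in each of the 6 libraries, from 2.03% in small-follicle library 2 to 2.64% in large-follicle library 1 (exact binomial 95% intervals 2.03% to 2.04% and 2.63% to 2.64%, which cover counting error only). By the deposited TPM, which use 1 fixed length per gene, it was not the most abundant transcript. Isoforms could not be separated, and whether another length would change its rank was not tested. By TPM DNMT1 held rank 2 in large-follicle libraries 1 and 2 and between rank 5 and rank 8 in the other libraries. ACCSL, picked out once its values were known, was above it in every library, at 9937 to 11262 TPM. UHRF2 held rank 3 or 4 by reads and ranks from 20 to 26 by TPM.

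The 10 genes lie on 7 different chromosomes of assembly Sscrofa11.1. DNMT1 spans 68981564 to 69040364 of chromosome 2, where UHRF1 spans 73898061 to 73937727 and MBD3 76913880 to 76923435. DNMT3A lies on chromosome 3 from 113501972 to 113609148 and TET3 on the same chromosome from 68918896 to 69020406. DNMT3B is on chromosome 17 (36345715 to 36386076), UHRF2 on chromosome 1 (215730212 to 215807630), TET1 on chromosome 14 (71675671 to 71812732), TET2 on chromosome 8 (116413253 to 116546976) and TDG on chromosome 5 (80473233 to 80492295). The first 732 bases of the TDG span are shared with GLT8D2, a glycosyltransferase-domain gene at a mean of 54.3 CPM, and 2190 bases of UHRF1 are shared with ARRDC5, at a mean of 0.153 CPM. TET1 contains the pseudogene LOC106508086 over 682 bases, and 342 bases of TET3 are shared with LOC102163719; no value of either was used here. Whether counting used strand is not stated in the sources, so reads in these shared stretches could belong to either gene.

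No member passed the test between follicle sizes over all genes (edgeR's quasi-likelihood test, Benjamini-Hochberg adjusted p under 0.05), where 9 of 14091 genes, 0.0639%, passed. Of the 10 genes, 7 had higher and 3 lower fitted levels in large-follicle oocytes, against 50.8% higher among all genes tested; DNMT3A, one of the 7, changed sign under other scalings. The median log2 difference, large minus small, was 0.24 over the 10 genes and 0.0039 over all genes. At an unadjusted p under 0.05 there were 4 higher members, against 9.85% of all genes, and 1 lower member, against 8.17%. In 2 members all large-follicle libraries were above all small-follicle libraries, against 12.1% of genes, and in 1 member all were below, against 11.6%. With DESeq2's Wald test 1 member, DNMT3B, passed as higher (adjusted p = 0.0216), against 2.84% of genes. TET1 and TDG received no adjusted p from DESeq2 and could not pass. The 2.84% is a share of all 14091 genes, with or without an adjusted p. All 10 genes passed the filter on low counts. Because the 10 genes were chosen with earlier results of these data known, their shares do not test for an excess over all genes.

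**Figure D2:**
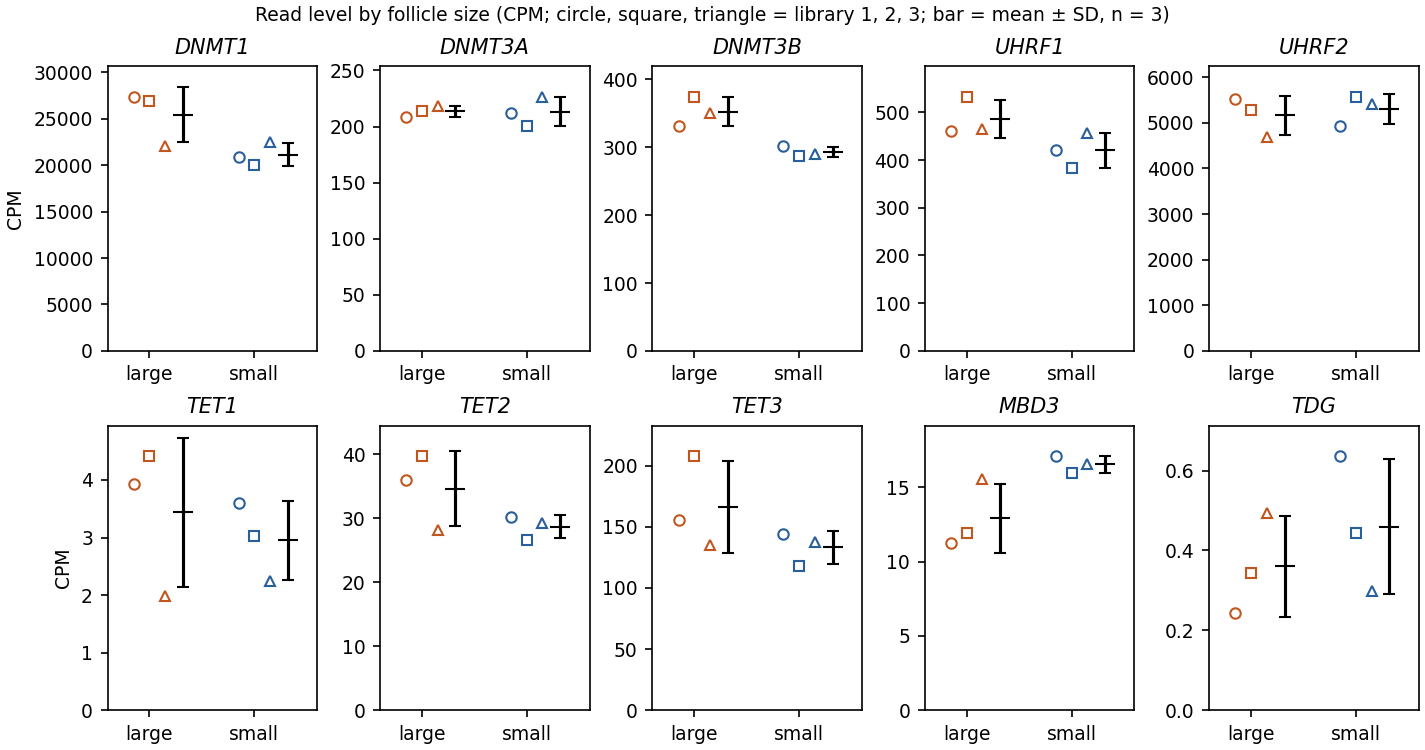
CPM of each gene in the large-follicle (orange) and small-follicle (blue) libraries, with the mean ± SD of 3 libraries beside them and every axis starting at 0. DNMT3B is higher and MBD3 lower in all large-follicle libraries, and large-follicle library 3 (triangle) sits nearer to the small-follicle libraries for DNMT1, TET2 and MBD3.

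Among the methyltransferases, DNMT3B, a de novo enzyme, had the smallest p of the 10 genes. With values in the order of libraries 1, 2 and 3, here and below, it stood at 332, 374 and 351 CPM in the large-follicle group and at 301, 287 and 291 CPM in the small-follicle group. The groups did not overlap, and the fitted difference was 1.20-fold, or 0.27 on the log2 scale (SE 0.071; adjusted p = 0.118 by edgeR). Its small-follicle libraries lay close together, with a coefficient of variation of 2.47%.

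DNMT3A, the other de novo enzyme, had almost the same level in both groups. It stood at 209, 214 and 218 CPM in the large-follicle and 212, 201 and 227 CPM in the small-follicle libraries. The large-follicle values lay inside the small-follicle range, the log2 difference was 0.0030 (SE 0.072; adjusted p = 0.991 by edgeR), and the coefficient of variation over all 6 libraries, 4.11%, was the smallest of the 10 genes. DNMT3L, the catalytically inactive partner that de novo methylation needs in mouse oocytes, was picked out once its values were known: 2 reads in all were assigned to it, 1 each in small-follicle libraries 1 and 3, against 1768 to 12004 reads per library for DNMT3A. A count of 0 allows up to 0.375 reads per 1000000 in the shallowest library and 0.0528 in the deepest. Read counts also depend on gene length, and whether the low count of DNMT3L rests on its gene model was not tested.

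DNMT1 stood at 27371, 26879.8 and 22051 CPM in the large-follicle group and at 20902, 20005 and 22450.4 CPM in the small-follicle group. Large-follicle library 3 fell inside the small-follicle range, so the groups overlapped. The adjusted p was 0.195 by edgeR, with a 1.20-fold higher fitted level. Read depth does not limit this value, since the smallest count behind it was 178593 reads.

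Its targeting partner UHRF1, which recognises hemimethylated CpG sites, stood at 461, 533 and 465 CPM in the large-follicle and 420, 383 and 457 CPM in the small-follicle libraries. Every large-follicle value was higher, but only just in the nearest pair, 461 against 457 CPM, and in TPM the groups overlapped. The log2 difference was 0.21 (SE 0.090; adjusted p = 0.257 by edgeR). UHRF2 stood at 5522, 5271 and 4695 CPM against 4934, 5569 and 5419 CPM. These groups overlapped widely and the log2 difference was -0.040 (SE 0.085; adjusted p = 0.849).

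The 3 TET genes had higher means in large-follicle oocytes with overlapping groups. TET3 stood at 155, 208 and 135 CPM in the large-follicle and 144, 118 and 137 CPM in the small-follicle libraries. Large-follicle library 2 was the highest and library 3 lay among the small-follicle values, and the log2 difference was 0.33 (SE 0.15; adjusted p = 0.283 by edgeR). TET2 stood at 35.9, 39.7 and 28.2 CPM against 30.1, 26.6 and 29.2 CPM, a log2 difference of 0.29 (SE 0.12; adjusted p = 0.255), again with large-follicle library 3 among the small-follicle values. TET1 stood at 3.92, 4.42 and 1.98 CPM against 3.61, 3.02 and 2.24 CPM. With 16 reads in large-follicle library 3, its exact Poisson 95% interval there was 1.13 to 3.21 CPM. The intervals of small-follicle libraries 1 (3.13 to 4.14 CPM) and 3 (1.80 to 2.75 CPM) did not overlap, so spread went beyond counting error. No difference of TET1 was detected (log2 difference 0.30, SE 0.27, adjusted p = 0.604 by edgeR).

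MBD3, which in mammals binds methylated DNA poorly and serves as a subunit of the NuRD deacetylase and remodelling complex, differed in the other direction. It stood at 11.2, 11.9 and 15.6 CPM in the large-follicle group and at 17.1, 16.0 and 16.6 CPM in the small-follicle group. All large-follicle values were lower, library 3 only slightly, and the log2 difference was -0.39 (SE 0.13; adjusted p = 0.172 by edgeR).

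TDG was represented by 5, 19 and 4 reads in the large-follicle and 36, 15 and 12 reads in the small-follicle libraries. These were 0.242, 0.344 and 0.494 CPM against 0.637, 0.444 and 0.299 CPM, with exact Poisson 95% intervals from 0.135 to 1.26 CPM in large-follicle library 3 and from 0.446 to 0.881 CPM in small-follicle library 1. The groups overlapped, and no difference was detectable at this depth (log2 difference -0.47, SE 0.45; adjusted p = 0.611 by edgeR).

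The number of members called by edgeR depended on large-follicle library 3. Without it, 1124 of 14429 genes passed as higher (7.79%) and 775 as lower (5.37%), and among the 10 genes 3 rose and 1 fell. DNMT1 rose with a log2 difference of 0.35 (SE 0.084; adjusted p = 0.0219 by edgeR), TET2 with 0.39 (SE 0.090; adjusted p = 0.0192) and DNMT3B with 0.26 (SE 0.070; adjusted p = 0.0341), while MBD3 fell by 0.52 (SE 0.10; adjusted p = 0.0123). TET3 (0.44, SE 0.14), UHRF1 (0.23, SE 0.092), TET1 (0.49, SE 0.21), DNMT3A (-0.020, SE 0.073), UHRF2 (0.017, SE 0.080) and TDG (-0.61, SE 0.49) did not pass. Only 2 large-follicle libraries stand behind these calls. DNMT3B itself hardly moved: with all 6 libraries its log2 difference was 0.27 (SE 0.071). Its unadjusted p by edgeR was 0.0044 with all 6 libraries and 0.0033 without large-follicle library 3. DESeq2's test called it with that library included.

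**Figure D3:**
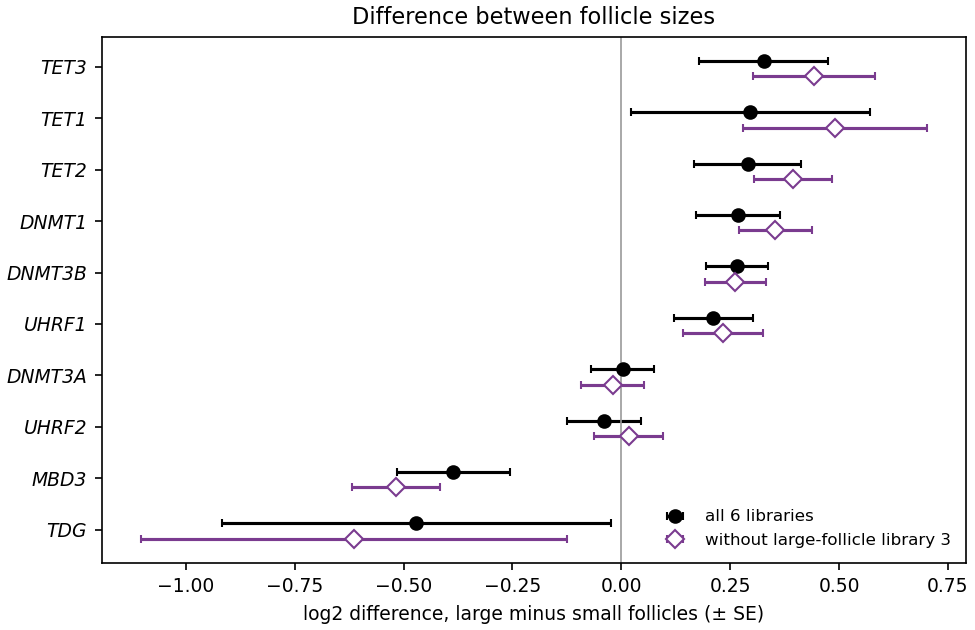
Log2 difference between large-follicle and small-follicle oocytes with its SE for each gene, from all 6 libraries (black circles) and without large-follicle library 3 (open diamonds). DNMT1 moves from 0.27 to 0.35 and MBD3 from -0.39 to -0.52, while DNMT3B stays at 0.27 and 0.26 and DNMT3A near 0.

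Transcript length went with the differences of some members and not of others. Relative gene length was taken from the ratio of deposited counts to TPM. DNMT3B, DNMT1 and TET2 stood above 98.0%, 96.6% and 95.5% of the genes tested, and MBD3 and TDG above 27.2% and 35.7%. TET1, above 80.4%, had a log2 difference of 0.30, but UHRF2, above 79.7%, had -0.040. TET3, UHRF1 and DNMT3A, of near-equal length (63.5%, 63.7% and 61.9%), had 0.33, 0.21 and 0.0030. Over all genes the median log2 difference was -0.035 in the shortest of 4 equal length classes and 0.046 in the longest. Relative to the mean of all libraries, the longest class deviated by a median of 0.060, 0.056 and -0.055 in the large-follicle group, against -0.045 to -0.0071 in the small-follicle libraries. After a correction for length in each library, chosen after seeing the data, the log2 differences were 0.19 for DNMT1 (SE 0.071), 0.18 for DNMT3B (SE 0.075), 0.22 for TET2 (SE 0.10) and -0.37 for MBD3 (SE 0.12), and no member passed (adjusted p = 0.156 to 0.972 by edgeR).

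Ratios of TPM within a library compare related genes without any scaling between libraries. With 1 fixed length per gene, they keep any trend with length that differs between libraries. DNMT1 and DNMT3B were longer than 96.6% and 98.0% of the genes tested, DNMT3A longer than 61.9%. The part of length in the ratios was not tested, and non-overlap in other pairs of genes was not counted. An exact two-sided permutation test of 3 against 3 libraries cannot give a p below 0.10, so no ratio could pass. The ratio of DNMT3A to DNMT3B was 1.40, 1.27 and 1.38 in the large-follicle group and 1.57, 1.55 and 1.73 in the small-follicle group. The 2 de novo genes were thus nearer in level in all large-follicle libraries (log2 difference -0.26; exact p = 0.10, adjusted over 5 ratios 0.167). MBD3 exceeded MBD2, a paralogue that does bind methylated CpG, 1.96-, 2.26- and 2.33-fold in the large-follicle and 3.39-, 3.18- and 3.00-fold in the small-follicle libraries, again without overlap (log2 difference -0.55; exact p = 0.10, adjusted 0.167). DNMT1 exceeded DNMT3A 65.7-, 62.9- and 50.6-fold in the large-follicle libraries. In small-follicle oocytes that ratio was nearly constant, at 49.3, 49.9 and 49.6 (log2 difference 0.26; exact p = 0.10, adjusted 0.167). UHRF2 exceeded UHRF1 9.36-, 7.73- and 7.89-fold against 9.17-, 11.4- and 9.27-fold (exact p = 0.30, adjusted 0.375), and TET3 exceeded TET2 7.94-, 9.62- and 8.82-fold against 8.78-, 8.14- and 8.64-fold (exact p = 0.70). The groups overlapped in both of these ratios.

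**Figure D4:**
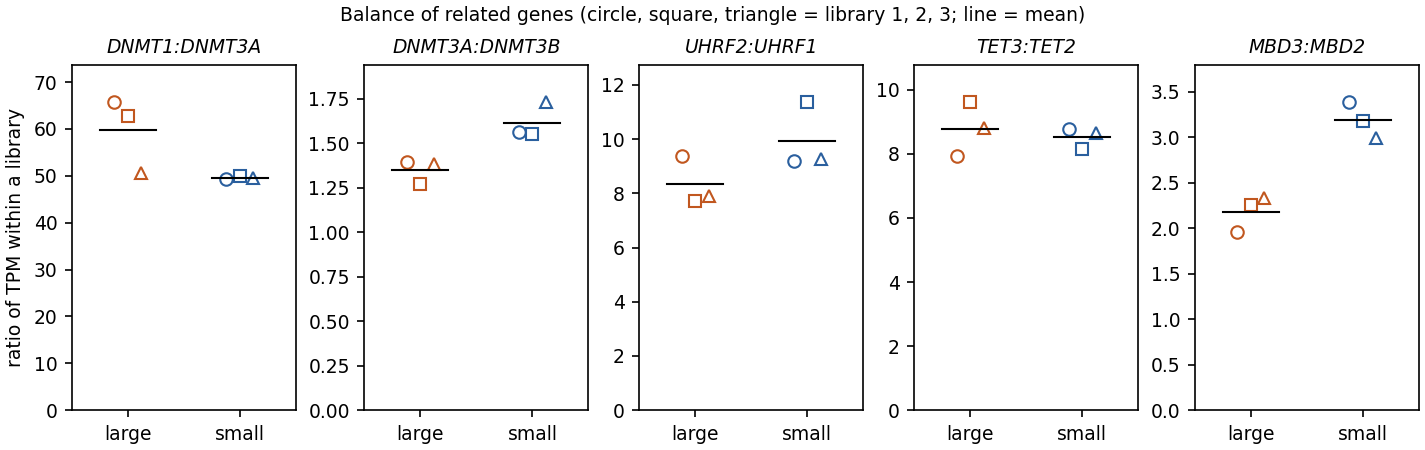
Ratio of TPM of 5 pairs of genes within each library, with the group mean as a line and axes starting at 0. DNMT3A:DNMT3B and MBD3:MBD2 are lower, and DNMT1:DNMT3A higher, in every large-follicle library than in any small-follicle library.

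The wider pathway was read from 5 lists with 70 genes tested, and no gene of them passed over all genes. Partners and guides of DNA methylation had 18 tested genes, of which 10 had higher means in large-follicle oocytes, with a median log2 difference of 0.12. At an unadjusted p under 0.05 there were 8 higher and 0 lower genes of these 18, 0 of the 9 readers, 2 higher of the 18 TET partners and repair genes, 1 lower of the 14 methyl donor genes, and 3 higher and 1 lower of the 11 NuRD partners. Among all genes the shares were 9.85% higher and 8.17% lower. The lists were also chosen with earlier results known, so these counts do not test for an excess. KDM1B, a histone H3K4 demethylase needed for maternal imprints in the mouse, had a log2 difference of 0.35 (SE 0.070; adjusted p = 0.0849 by edgeR), SETDB1, a histone H3K9 methyltransferase, 0.27 (SE 0.082), and ZNF445, a zinc finger protein that protects imprints, 0.27 (SE 0.076). PCNA, the replication clamp that DNMT1 binds, was the most abundant gene of the list (3945 and 4146 TPM by group, large follicles first) and differed by -0.064 (SE 0.081). USP7, a deubiquitinase that binds DNMT1, stood at 731 and 646 TPM (log2 difference 0.19, SE 0.10).

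The 11 tested NuRD partners of MBD3 had a median of 0.14, with 10 of 11 higher, opposite in sign to MBD3 itself. Among all genes 50.8% were higher. The part of transcript length in the contrast with MBD3 was not tested. The helicases CHD3 (0.33, SE 0.073; adjusted p = 0.0986 by edgeR) and CHD4 (0.25, SE 0.074) and the histone-binding RBBP7 (0.19, SE 0.068) had the smallest p, and RBBP4 was the most abundant, at 517 and 473 TPM (0.14, SE 0.066). MTA2, the partner with a lower level, had a log2 difference of -0.48 (SE 0.21) and was named after its values were seen. Methyl-CpG readers had 9 tested genes, 6 of them higher, and a median of 0.11. ZBTB33, which encodes Kaiso, differed by 0.22 (SE 0.11), MBD6 by 0.18 (SE 0.13) and MBD2 by 0.16 (SE 0.12).

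TET partners and base excision repair genes had a median of -0.018 over 18 tested genes, with 8 higher and 10 lower. The glycosylases NEIL3 (0.17, SE 0.071) and NEIL2 (0.61, SE 0.30) and the DNA break sensor PARP1 (0.18, SE 0.076) had the smallest p, and LIG3, which seals the repaired strand, was the most abundant, at 490 and 462 TPM (0.093, SE 0.068). NEIL2 varied within the large-follicle group, at 3.83, 8.22 and 10.2 CPM against 4.05, 5.09 and 5.11 CPM, with its first library below every small-follicle value. Its log2 difference was 0.38 without large-follicle library 3 and 0.93 without large-follicle library 1. Methyl donor synthesis had a median of 0.020 over 14 tested genes, with 8 higher and 6 lower. AHCY, which removes the S-adenosylhomocysteine that methyltransferases release, differed by -0.19 (SE 0.083), BHMT, a homocysteine methyltransferase, by -0.50 (SE 0.23) and the one-carbon enzyme SHMT2 by 0.24 (SE 0.12). MAT2A and MAT2B encode subunits of an enzyme that makes S-adenosylmethionine. They stood at 210 and 140 TPM in large-follicle and 202 and 134 TPM in small-follicle oocytes. Without large-follicle library 3, 11 of the 70 genes rose and 2 fell, against 7.79% and 5.37% of all genes. CDCA7, USP7, ZNF445, KDM1B, SETDB1, NSD1, QSER1, ZBTB33, CHD3, CHD4 and GATAD2B rose (adjusted p from 0.00979 to 0.0468 by edgeR), and DMAP1, a DNMT1-binding protein, and the repair endonuclease gene APEX1 fell (adjusted p = 0.0104 and 0.0199).

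**Figure D5:**
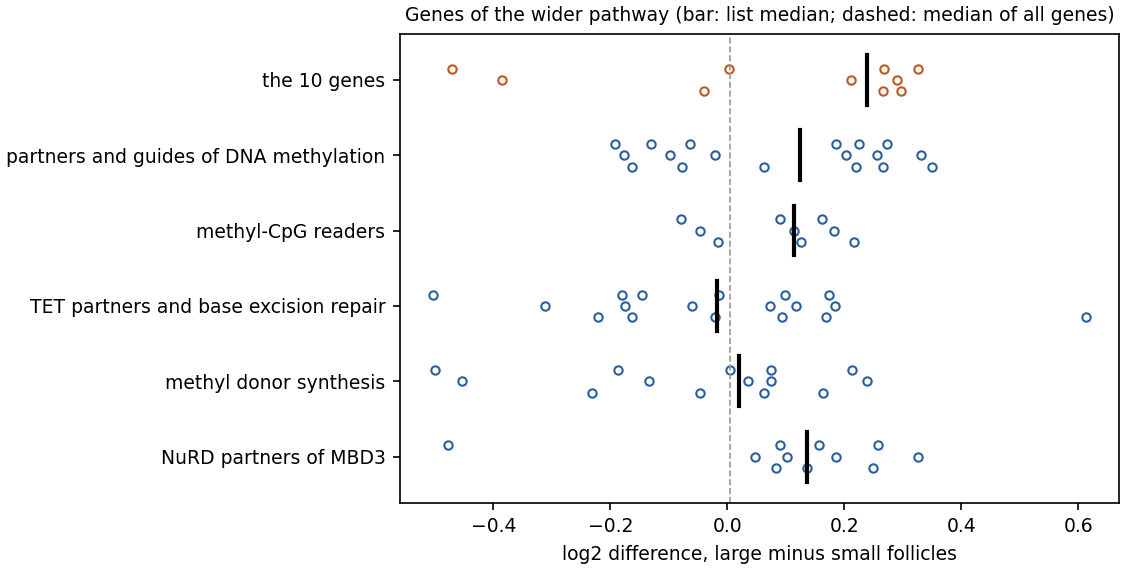
Log2 difference between large-follicle and small-follicle oocytes for each tested gene of the 10 and of the 5 wider lists (circles), with list medians as bars and the median of all genes as a dashed line. The median is 0.24 for the 10 genes and between -0.018 and 0.14 for the other lists.

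The pattern of DNMT1 over the 6 libraries was compared with 4324 other named genes of at least 50 CPM, by the root mean square difference of their log2 deviations from their own means. The nearest were ERC1, an active-zone scaffold gene (0.014 on the log2 scale), the nucleoporin gene NUP153 (0.020), the nonsense-mediated decay factor gene UPF2 (0.025), the mitochondrial carrier gene SLC25A32 (0.025) and the RNA-binding protein gene RBM27 (0.025). DNMT1 deviated by 0.24, 0.22 and -0.068 in the large-follicle group and by -0.14, -0.21 and -0.042 in the small-follicle group. Of the members at that level, UHRF1 ranked 976 in nearness (0.10), DNMT3B 1441 (0.12), TET3 2010 (0.15), UHRF2 2426 (0.17) and DNMT3A 2446 (0.17), so none was close to DNMT1 in its pattern.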

How the data were processed

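The authors deposited 1 table (19296 rows) that pairs raw read counts with TPM for each of the 6 libraries. The counts are as deposited, not normalised. The deposited TPM values are scaled by the authors for gene length and depth, with 1 fixed length per gene. The submitters' processing notes name build Sscrofa11.1, and the library kit was directional, per the labels' protocols. For aligner, counter, strand setting and annotation release: not given in the sources used here. Rows named by a date (25, a mean of 0.153% of reads) were left out, and 853 of 4604 rows with an Ensembl identifier received a symbol from a name table. All 10 symbols matched once in RefSeq's gene table for that assembly, which gave the positions.

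Groups follow the titles. The main test was edgeR 4.0.16 (R 4.3.3): TMM factors, filterByExpr, robust quasi-likelihood fit on group alone, 14091 genes, Benjamini-Hochberg adjustment over all of them. Each SE was computed from the log2 difference and its F statistic. Alternatives were DESeq2 1.42.0, limma 3.58.1 on log2(TPM + 1), other scalings and filters, the replicate number as a block, leaving out each library and a length correction. The script was tested on simulated counts. No library was a repeat of another within sampling noise (chi-square over degrees of freedom 9.90 to 20.9 between libraries of a group). Counting error is largest in large-follicle library 3. Named genes are the members, the 3 smallest p (or all that passed) and the 2 highest mean TPM of each list, and the 5 genes nearest to DNMT1, except a list gene that is not reported here; members and lists were chosen with earlier results of these data known.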

Additional observations from a re-analysis of the deposited data

How the results depend on the processing

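No member was called with DESeq2's size factors in edgeR, library size alone, no filter, a filter of 5 CPM in 3 libraries (which removed TET1 and TDG), limma on log2(TPM + 1), the length correction or the replicate block, and 0 list genes passed in each of these. DESeq2's own test called 1 member (DNMT3B) and 5 list genes (KDM1B, ZNF445, SETDB1, CHD3 and CHD4). It gave no adjusted p for TET1 and TDG. Leaving out each library gave 0 to 4 members and 0 to 13 list genes, with the higher number without large-follicle library 3. Over all genes the number called was 0 with DESeq2's size factors, 14 with library size alone, 52 without a filter, 20 at 5 CPM, 722 with DESeq2, 0 with limma, 41 with the length correction and 0 to 1899 when each library was left out. With 0 called, 2525 genes (DESeq2's size factors) and 2193 (limma) had an unadjusted p under 0.05.

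The replicate numbers of the titles showed no sign of pairing. Same-numbered libraries deviated from their group means with correlations of -0.095, 0.0028 and -0.16, and no library correlated best with its own number. Deviations of 3 libraries from their own mean are not independent, so these values cannot exclude shared collections. With the replicate block 24 genes and 0 members were called.

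DNMT1, DNMT3B, UHRF1, TET1, TET2, TET3, MBD3 and TDG kept their direction in every alternative that held them. DNMT3A, whose difference was near 0, changed sign with DESeq2's size factors (-0.0022), library size alone (-0.047), no filter (-0.022), 5 CPM (-0.023), DESeq2 (-0.0026), limma (-0.0026) and the length correction (-0.0078), and lay between -0.045 and 0.049 when each library was left out. UHRF2 lay between -0.091 and 0.017 and MAT2B between -4.1e-05 and 0.11 when each library was left out. The log2 difference of the TET3:TET2 ratio lay between -0.025 and 0.11 in the same way; the cause of these changes was not tested. TDG and TET1 had the fewest reads of the members, at 4 to 36 and 16 to 244 per library. Counting error relative to level was thus largest for them, but the spread of TET1 went beyond it.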

Other observations

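TDG had the lowest deposited TPM of the 8 DNA glycosylase genes in the lists. At a mean of 0.455 TPM over the 6 libraries (range 0.267 to 0.715) it stood below the other 7. NEIL3 stood at 219 TPM (203 to 251) and UNG, which removes uracil, at 199 TPM (180 to 238). NTHL1 (48.0 TPM), NEIL1 (22.4 TPM), MBD4 (12.5 TPM), SMUG1 (7.33 to 13.3 TPM) and NEIL2 (9.80 TPM) lay between, and the lowest value of any of them in a single library, 6.12 TPM for NEIL2, was above the highest of TDG. ZFP57, which binds methylated imprinting control regions, averaged 0.583 TPM, against 162 TPM for ZNF445, a zinc finger gene with a related role. These genes were compared after their values were seen, and levels in TPM depend on the gene models and lengths the authors used. Whether the low count of TDG, 4 to 36 reads per library, rests on its gene model was not tested, and glycosylase genes outside the lists were not compared.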
